A study of Mus musculus with 8 samples.

Results

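Hps6 and 8 other genes of the Hermansky-Pudlak complexes and their partners were followed in RNA-seq of isolated microglia, the resident macrophages of the brain. The 9 genes, Hps1, Hps3, Hps4, Hps5, Hps6, Ap3b1, Ap3d1, Dtnbp1 and Rab38, were taken by gene symbol from a read-count table of 55421 genes, and all 9 were among the 22089 genes that passed the filter on low counts. Hps6 was chosen by its low level in one group of these same libraries, so its values are given as a description with no test. The 8 others encode its BLOC-2 partners, subunits of related complexes and a GTPase, and were put forward with earlier results of these data known.

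The 8 libraries came from brains of 6-month-old C57BL/6 mice and formed 4 groups of 2. Mice labelled wild type or Calhm2 cKO (conditional knockout) without Alzheimer's disease are called WT and cKO here. Those of the same genotypes labelled as having the disease, abbreviated AD, are called WT/AD and cKO/AD. The labels name neither the Cre driver nor the disease model, and the labels do not state whether the 2 libraries of a group are from different mice. The p-values therefore reflect only the spread among these libraries, some or all of which may be technical. Calhm2, a channel gene and the target of the knockout, was counted 216 and 239 times in WT libraries and 96 and 107 times in cKO libraries. With AD the counts were 412 and 347 in wild type and 44 and 35 in the knockout.

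Lysosome-related organelles are compartments such as melanosomes and platelet dense granules that are built from the endosomal system. Biogenesis of lysosome-related organelles complexes (BLOC-1, BLOC-2 and BLOC-3) and the adaptor AP-3 sort and deliver membrane proteins to them, and AP-3 also serves the route from endosomes to lysosomes in cells without such organelles, macrophages included. Inherited loss of subunits causes Hermansky-Pudlak syndrome, with albinism and bleeding, and the corresponding mouse mutants have pale coats.

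The sequences upstream of the 3 BLOC-2 genes are shown because Hps6 encodes a subunit of this complex. Hps6 was chosen by its level, so the sequences are not read as a reason for any difference between the 3 genes. Each is the 250 bases before the RefSeq start site on build GRCm38.p6, written along the gene's strand, from chr3:20035311-20035560 (minus) for Hps3, chr7:46795882-46796131 (minus) for Hps5 and chr19:46003228-46003477 (plus) for Hps6. Capitals mark CACGTG, the E-box read by the MiT/TFE factors and other basic helix-loop-helix proteins, which is the same on both strands.
Hps3: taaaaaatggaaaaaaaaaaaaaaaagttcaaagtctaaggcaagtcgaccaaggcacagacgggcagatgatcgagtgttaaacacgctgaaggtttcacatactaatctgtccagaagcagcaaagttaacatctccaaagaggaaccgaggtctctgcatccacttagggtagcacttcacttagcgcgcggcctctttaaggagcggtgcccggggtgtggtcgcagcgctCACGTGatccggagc
Hps5: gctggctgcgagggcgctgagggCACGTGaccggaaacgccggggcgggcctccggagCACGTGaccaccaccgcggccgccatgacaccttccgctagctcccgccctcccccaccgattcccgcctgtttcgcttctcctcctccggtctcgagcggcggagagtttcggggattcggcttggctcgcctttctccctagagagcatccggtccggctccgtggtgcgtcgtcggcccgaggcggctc
Hps6: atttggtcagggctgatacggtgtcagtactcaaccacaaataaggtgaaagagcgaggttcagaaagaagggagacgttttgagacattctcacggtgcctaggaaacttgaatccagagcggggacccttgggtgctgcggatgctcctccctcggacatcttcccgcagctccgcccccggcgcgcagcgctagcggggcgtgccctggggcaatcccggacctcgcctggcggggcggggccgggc
Hps3 held the motif 1 time, starting at position -15 from the start site, and Hps5 held it 2 times, at -227 and -192. Hps6 held none, as did Hps1, Hps4, Ap3b1, Ap3d1 and Dtnbp1, and Rab38 had no entry. Of 32851 upstream windows of this length, 6.02% held it. The window of Hps3 had a GC content of 48.8%, that of Hps5 70.8% and that of Hps6 62.8%, against a median of 52.4% over all windows. A match describes the letters only and is no evidence of binding.

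Hps6 was present in 6 libraries and close to absent in the 2 cKO/AD libraries. Hps6 (ENSMUSG00000074811.3) encodes a BLOC-2 subunit and is a gene of 1 exon on chromosome 19. Its counts were 283 and 380 for the WT libraries, 197 and 274 for cKO, 542 and 463 for WT/AD, and 0 and 1 for cKO/AD. Scaled to library size times its TMM factor these were 13.4 and 19.1 counts per 1000000 (CPM) for WT beside 9.76 and 12 CPM for cKO without AD, and 21.5 and 18.3 CPM for WT/AD beside 0 and 0.0446 CPM for cKO/AD with it. Both cKO libraries lay below both WT libraries, the WT and WT/AD libraries overlapped, and both cKO/AD libraries lay far below the 6 others. The summed level was 797.9 times as high in WT/AD as in cKO/AD (1005 counts against 1; exact 95% interval 142.9 to 31545.5) and 438.8 times as high in cKO as in cKO/AD (471 against 1; 78.4 to 17366.3). These intervals cover counting error only. Between cKO and WT the log2 difference of Hps6 was -0.58 (SE 0.457), and between WT/AD and WT it was 0.29 (SE 0.455).

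Of 11577 genes with at least 100 counts in each of the 6 other libraries, 1, Hps6, had no more than 1 count over both cKO/AD libraries, a limit set after its values were seen. Relative to the mean CPM of the other 6 libraries, Hps6 stood at 0.142% in cKO/AD. Among these 11577 genes the next lowest by that measure were Ajuba at 0.752%, Klf11 at 0.775%, Gja4 at 0.822% and Evc at 0.998%. Each had 3 counts over both cKO/AD libraries. Genes with fewer counts in the other libraries were not ranked, and some of them were at 0 in both cKO/AD libraries. On chromosome 19, Lbx1 (0.119 and 2.89 CPM in WT/AD) and Col17a1 (8.19 and 5.11) were such genes. By correlation of log2 CPM over the 8 libraries, the 5 genes most like Hps6 were Syvn1 (r = 0.996), Mfsd2a (0.994), Neurl1a (0.992), Evc (0.989) and Acsbg1 (0.989). These values share the same 8 libraries and turn on the 2 from cKO/AD. Syvn1 was at 6.02 and 6.07 CPM in cKO/AD and Evc at 0.114 and 0.0446.

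**Figure D1:**
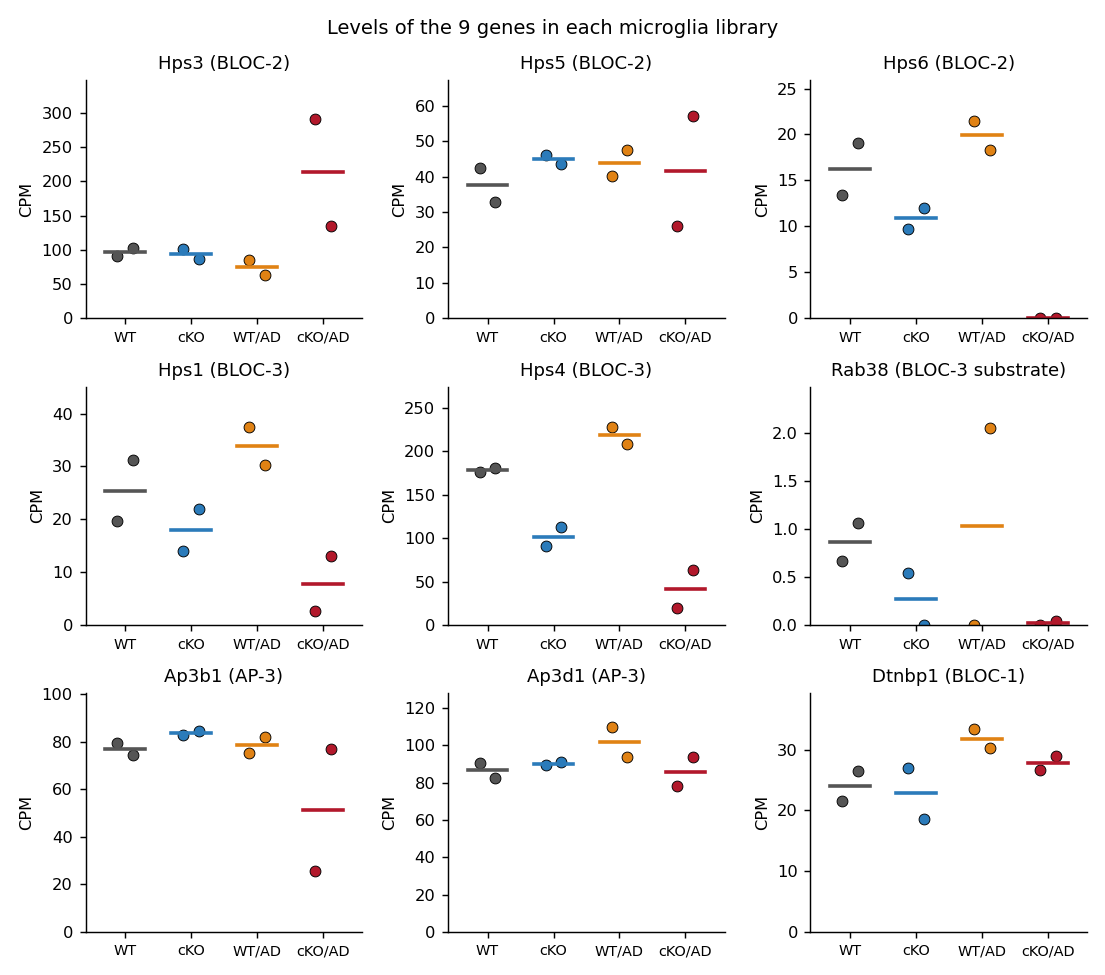
Level of each of the 9 genes in CPM (linear axis from 0) in every library, with 2 points per group and a bar at their mean. Hps6 lies at 0 and 0.0446 CPM in cKO/AD, Hps3 is higher there than in the 6 other libraries, and Hps1 and Hps4 are lower.

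The other BLOC-2 subunits did not share that level. Hps3 (ENSMUSG00000027615.14) measured 91.1 and 102.3 CPM (WT) beside 101.6 and 86.0 CPM (cKO) without AD, and 85.4 and 62.9 CPM (WT/AD) beside 291.5 and 135.4 CPM (cKO/AD) with it. Both cKO/AD libraries were above all 6 others, and they differed between themselves by more than the libraries of any other group. Against WT/AD, Hps3 rose in cKO/AD by a log2 difference of 1.53 (SE 0.354, edgeR adjusted p = 0.0241). The call was lost with GC content corrected (0.96, adjusted p = 0.126), with only the 2 groups in the fit (1.54, adjusted p = 0.128) and without either WT or either WT/AD library (1.31 to 1.78, adjusted p from 0.0509 to 0.14). The difference was 0.90 without the first cKO/AD library and 1.96 without the second. In such a fit cKO/AD holds 1 library, which is assumed to vary like the other groups, so passing the threshold there says nothing of the spread within cKO/AD, and no p is given for it. The annotated span of Hps3 overlaps that of Cp, and without a stated strand setting reads from shared bases cannot be told apart. The span of Hps4 overlaps 4 other annotated genes, and those of Hps1, Hps5, Ap3b1 and Rab38 overlap 1 each.

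Hps5 (ENSMUSG00000014418.16) measured 42.5 and 32.8 CPM (WT) beside 46.1 and 43.7 CPM (cKO) without AD, and 40.1 and 47.5 CPM (WT/AD) beside 26.2 and 57.1 CPM (cKO/AD) with it. The 2 cKO/AD libraries were the lowest and the highest of the 8, so the group spanned all the others. The log2 difference between cKO/AD and WT/AD was -0.07 (SE 0.363, edgeR adjusted p = 0.919), and it was 0.41 without the first cKO/AD library and -0.75 without the second.

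Both subunits of BLOC-3, the exchange factor that activates Rab32 and Rab38, were at their lowest in cKO/AD. Genes of their GC content had a median log2 difference of -1.18 between cKO/AD and WT/AD. How many of all tested genes were lowest in cKO/AD was not counted. Hps4 (ENSMUSG00000042328.13) measured 176.4 and 180.6 CPM (WT) beside 90.4 and 113.0 CPM (cKO) without AD, and 228.2 and 208.0 CPM (WT/AD) beside 19.1 and 62.9 CPM (cKO/AD) with it. The 4 groups did not overlap, with cKO below WT and cKO/AD below cKO. Hps4 fell from WT/AD to cKO/AD, with a log2 difference of -2.41 (SE 0.48, edgeR adjusted p = 0.015), and passed after GC correction too (-1.26, adjusted p = 0.0407), but not without the first WT/AD library (-2.33, adjusted p = 0.0811) or with only the 2 groups in the fit (-2.40, adjusted p = 0.117). The difference was -1.77 without the first cKO/AD library and -3.53 without the second. Between cKO and WT the log2 difference of Hps4 was -0.81 (SE 0.458, adjusted p = 0.754). Without the first cKO/AD library that difference, between groups of 2 libraries each, was -0.78 (SE 0.167, adjusted p = 0.0251).

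Hps1 (ENSMUSG00000025188.15) measured 19.6 and 31.2 CPM (WT) beside 14.0 and 21.9 CPM (cKO) without AD, and 37.5 and 30.3 CPM (WT/AD) beside 2.61 and 13.0 CPM (cKO/AD) with it. Both cKO/AD libraries were below the 6 others, while the WT and cKO libraries overlapped. The log2 difference between cKO/AD and WT/AD was -2.11 (SE 0.678, edgeR adjusted p = 0.0675) and did not pass the threshold. It passed with DESeq2 (-2.09, adjusted p = 0.00871), limma-voom (-2.39, adjusted p = 0.028), a replicate block (-2.43, edgeR adjusted p = 0.0385) and no filter (-2.09, edgeR adjusted p = 7.26e-05). It did not pass with group weights in limma-voom (-2.40, adjusted p = 0.115) or with only the 2 groups in the edgeR fit (-2.10, adjusted p = 0.196). Correction for GC content left -0.80 (edgeR adjusted p = 0.33). The difference was -1.36 without the first cKO/AD library and -3.71 without the second.

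Rab38 (ENSMUSG00000030559.8), a small GTPase that directs cargo to melanosomes and is activated by BLOC-3, was barely detected. Its counts were 14 and 21 (WT) beside 11 and 0 (cKO) without AD, and 0 and 52 (WT/AD) beside 0 and 1 (cKO/AD) with it, so 1 library was at 0 in each of cKO, WT/AD and cKO/AD. The summed counts of 52 in WT/AD and 1 in cKO/AD came from 1 library each, and the log2 difference of -5.13 had an SE of 2.92 (edgeR adjusted p = 0.255). Its paralogue Rab32, which was not among the 9, measured 50.5 and 45.4 CPM (WT) beside 35.5 and 37.8 CPM (cKO) without AD, and 30.5 and 44.0 CPM (WT/AD) beside 26.7 and 38.5 CPM (cKO/AD) with it.

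Neither AP-3 gene of the 9 passed in any comparison with all 8 libraries and no GC correction. Ap3b1 (ENSMUSG00000021686.6), the beta subunit, measured 79.3 and 74.3 CPM (WT) beside 82.8 and 84.3 CPM (cKO) without AD, and 75.2 and 82.1 CPM (WT/AD) beside 25.7 and 77.0 CPM (cKO/AD) with it. Only the first cKO/AD library stood apart, and the log2 difference from WT/AD was -0.61 with it (SE 0.429, edgeR adjusted p = 0.35) and 0.00 without it, and without the second cKO/AD library it was -1.63 and passed, with the first as the only library of its group. Ap3d1 (ENSMUSG00000020198.8), the delta subunit mutated in mocha mice, measured 90.6 and 82.5 CPM (WT) beside 89.3 and 91.1 CPM (cKO) without AD, and 109.6 and 93.5 CPM (WT/AD) beside 78.0 and 93.6 CPM (cKO/AD) with it, with overlapping groups. Its log2 difference was -0.24 (SE 0.193, adjusted p = 0.414) and turned to 0.97 with GC content corrected (adjusted p = 0.0398).

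Dtnbp1 (ENSMUSG00000057531.14) encodes dysbindin, a BLOC-1 subunit mutated in sandy mice. It measured 21.5 and 26.5 CPM (WT) beside 27.0 and 18.6 CPM (cKO) without AD, and 33.4 and 30.2 CPM (WT/AD) beside 26.7 and 29.0 CPM (cKO/AD) with it. Both WT/AD libraries were the highest of the 8. The log2 difference between cKO/AD and WT/AD was -0.19 (SE 0.291, edgeR adjusted p = 0.683) and turned to 1.10 after GC correction (SE 0.353, adjusted p = 0.102), and that between WT/AD and WT was 0.41 (SE 0.291, adjusted p = 0.754).

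Counted over the 8 genes other than Hps6, 1 rose and 1 fell in cKO/AD against WT/AD, where edgeR called 18.0% of all tested genes (7.82% higher and 10.2% lower), and nothing is read from that count. Their median log2 difference was -0.43, beside -0.14 over all tested genes. Without the first cKO/AD library these medians were -0.10 and -0.07, with 3 of the 8 called beside 22.2% of all tested genes. Without the second they were -1.19 and -0.56, with 5 of the 8 called beside 41.1%.

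In the 4 other comparisons none of the 8 passed with all libraries. Calhm2, the target of the knockout, was not called between cKO and WT either (log2 difference -1.24, SE 0.466, edgeR adjusted p = 0.673). The share of all tested genes called was 0.0453% for AD in wild type, 0.0% for the knockout without AD, 0.217% for AD in the knockout and 0.0272% for the interaction. These shares depended on the cKO/AD libraries, and with 1 of them left out the last 2 comparisons rest on a cKO/AD group of 1. Without the first they were 5.22%, 2.72%, 8.06% and 12.3%, and edgeR called 0, 1, 0 and 1 of the 8. Without the second they were 4.85%, 2.54%, 34.6% and 31.8%, and it called 0, 1, 5 and 5 of the 8. An unadjusted p under 0.05 with all libraries was held by 0, 0, 2 and 2 of the 8, beside 8.99%, 7.23%, 23.4% and 21.9% of all tested genes. DESeq2 called 0, 0, 2 and 1 of the 8, beside 5.26%, 1.87%, 16.4% and 13.9% of the genes it gave an adjusted p, and limma-voom called none. Comparisons with a shared group are not independent of each other.

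The median difference between AD and non-AD libraries over genes of the GC content of Hps4 was 0.30 in wild type and -0.66 in the knockout. Hps4 was higher in both WT/AD libraries than in both WT libraries and lower in both cKO/AD libraries than in both cKO libraries, with log2 differences of 0.29 (SE 0.455) and -1.31 (SE 0.464). With GC content corrected these were -0.02 (SE 0.276) and -0.68 (SE 0.279), and the sign of the first cannot be read within its SE. The part of GC content in these differences was not tested. Hps3 was lower in WT/AD than in WT and higher in cKO/AD than in cKO (-0.38, SE 0.348, and 1.19, SE 0.351). The difference of these differences, the interaction of genotype and AD, was -1.60 for Hps4 (SE 0.648, edgeR adjusted p = 0.203) and 1.57 for Hps3 (SE 0.493, adjusted p = 0.126), and neither passed with all libraries. With a cKO/AD group of 1 library the interaction of Hps4 was -0.99 without the first library and -2.72 without the second and passed in both, and that of Hps3 was 0.90 and 2.01 and passed in the latter. These fits take the spread from the other groups and are no support for an interaction. With GC content corrected they were -0.66 for Hps4 and 1.08 for Hps3 (edgeR adjusted p = 0.438 and 0.298).

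**Figure D2:**
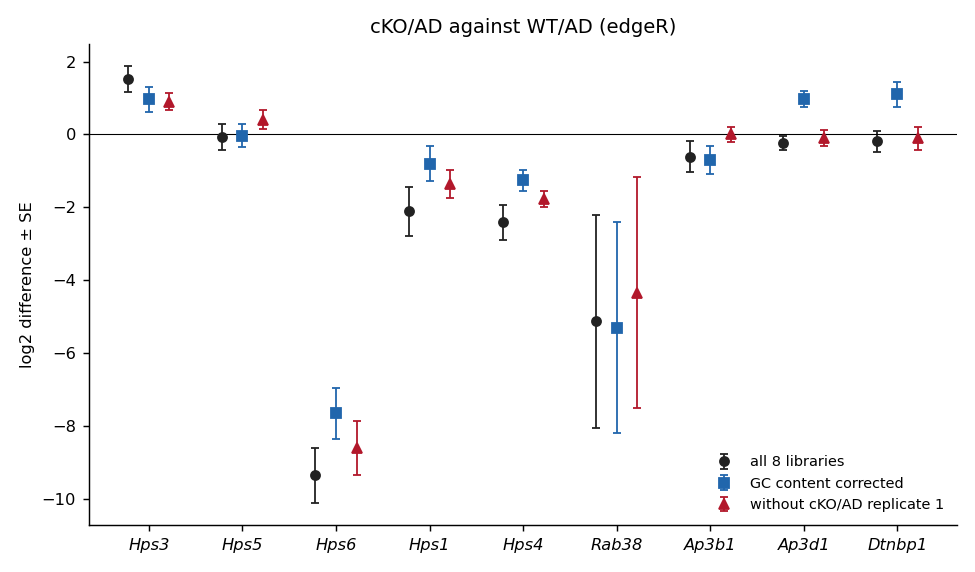
Log2 difference between cKO/AD and WT/AD (edgeR, ± SE) for the 9 genes with all 8 libraries, with GC content corrected and without the first cKO/AD library. Hps6 lies between -9.36 and -7.66, a fitted value that depends on how a count near 0 is treated, Hps4 and Hps1 stay below 0 and Hps3 above 0 in all 3.

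Divided by the length of the longest annotated transcript, levels can be set roughly side by side between genes. These values are not corrected for GC content, which moved with the difference between cKO/AD and WT/AD (next paragraph). In WT the order of CPM per kilobase was Hps4 (53.4), Hps3 (23.7), Ap3b1 (19.1), Ap3d1 (18.0), Dtnbp1 (13.3), Hps5 (7.6), Hps6 (6.11), Hps1 (6.06) and Rab38 (0.546). Ap3b1 and Ap3d1 overlapped between libraries, as did Hps5, Hps6 and Hps1. In cKO/AD Hps3 led with 52.4 CPM per kilobase, Hps4 was at 12.2, Hps5 at 8.41, Hps1 at 1.86 and Hps6 at 0.00837. Hps6 was chosen by its level in cKO/AD, so the range of the 3 BLOC-2 genes there is no result. The Hps3 value in cKO/AD is the mean of libraries at 71.5 and 33.2 CPM per kilobase.

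Transcript GC content moved with the difference between cKO/AD and WT/AD across all genes. With tested genes split into 10 equal groups by GC content, the median log2 difference went from 0.77 in the group lowest in GC to -1.78 in the group highest in GC. Hps3 (43.6% GC) fell in the third group, with a median of 0.51. Hps1 (57.0%), Hps4 (55.9%), Ap3d1 (55.3%) and Dtnbp1 (55.7%) fell in the ninth, with a median of -1.18, and Hps6 (59.7%) in the tenth. Hps3 and Hps4 thus differed in the direction of genes of their GC content, while Ap3d1 and Dtnbp1 lay above the median of theirs. Hps6 was at -7.66 (SE 0.707) with GC content corrected, beside a median of 0.09 in its group. The part of GC content in the values of each gene was not tested otherwise.

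**Figure D3:**
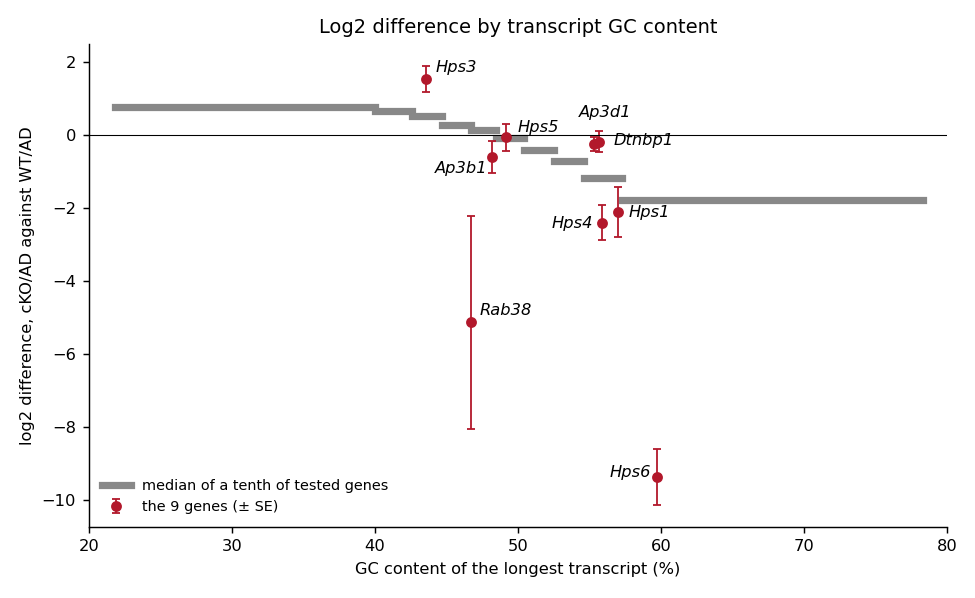
Log2 difference between cKO/AD and WT/AD against GC content of the longest transcript. Grey bars are the medians of 10 equal groups of tested genes, which descend from 0.77 to -1.78, and red points are the 9 genes ± SE, with Hps6 far below the bar of its group.

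Library measures also differed. The libraries held between 18218165 and 25774587 counts. The first cKO/AD library had 18693 genes with a count and 4.73% mitochondrially encoded counts, against 22088 to 25988 genes and 1.37% to 2.36% in the others. All 10 microglia markers, such as Cx3cr1, P2ry12, Tmem119 and Csf1r, were detected in every library. Their summed level ranged from 32049.9 to 35424.4 CPM in WT, 19158.2 to 22437.3 in cKO, 25239.8 to 26495.7 in WT/AD and 12415.3 to 17204 in cKO/AD. All 8 oligodendrocyte markers were detected too, with a sum of 4458.5 to 4965.6 CPM in WT, 6116.5 to 6449.4 in cKO, 5211.3 to 5795.4 in WT/AD and 8005.7 to 9835.6 in cKO/AD. The sum of 10 endothelial markers was 1844.2 to 1849.5 CPM in WT, 659.9 to 694.8 in cKO, 1184.5 to 1187.9 in WT/AD and 509.7 to 567.6 in cKO/AD. That of 10 mural and fibroblast markers was 1297.5 to 1309.4 CPM in WT, 407.8 to 452.5 in cKO, 571.1 to 614.5 in WT/AD and 249.2 to 501.0 in cKO/AD. Astrocyte markers summed to 1568.6 to 1699.4 CPM in WT, 963.4 to 965.2 in cKO, 1134.0 to 1306.0 in WT/AD and 907.5 to 1062.3 in cKO/AD. For neuron markers the sums were 1434.1 to 1459.8, 1595.2 to 1756.7, 1319.7 to 1342.2 and 1568.8 to 1869.8 CPM in the same order. For neutrophil markers they were 2211.8 to 2319.5, 1090.4 to 1206.2, 1064.9 to 1068.8 and 979.8 to 1074.5 CPM, and for border macrophage and monocyte markers 159.6 to 168.7, 146.0 to 170.9, 133.5 to 136.0 and 173.4 to 199.7 CPM. Their part in the levels of the 9 genes was not tested, and in bulk libraries fewer cells of a type and less RNA per cell cannot be told apart. The 9 melanosome genes, which would mark melanocytes, summed to 8.36 to 12.9 CPM in WT and 4.91 to 9.76 in cKO. With AD the sums were 6.32 to 7.25 CPM in WT/AD and 17.3 to 18.8 in cKO/AD, the highest of all libraries. Tyr, the tyrosinase gene, did not exceed 0.95 CPM in any library and had no count in either cKO/AD library. Slc24a5, also among these genes, reached 18.4 and 10.5 CPM in the cKO/AD libraries, against 2.78 to 7.08 CPM in the other libraries.

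Hps6 lies on the same chromosome as the targeted gene Calhm2, with 28 protein-coding genes between them in the GRCm38 annotation. Hps1 lies on chromosome 19 as well, on the other side of Hps6, with 46 protein-coding genes between them. The genes next to Hps6 were detected in both cKO/AD libraries. Armh3, the neighbour on one side, measured 37.8 and 31.7 CPM in the WT/AD libraries and 15.4 and 34.4 CPM in the cKO/AD libraries (log2 difference -0.48, edgeR adjusted p = 0.421). Ldb1, a transcriptional cofactor gene on the other side, measured 56.3 and 50.5 CPM in the WT/AD libraries and 18.5 and 11.5 CPM in the cKO/AD libraries (-1.83, adjusted p = 0.01, and 0.03 with GC content corrected). Of the 15 tested neighbours at or above 5 CPM among the 10 protein-coding genes on each side, 1 rose and 5 fell, beside 7.82% and 10.2% of all tested genes, with log2 differences from -4.38 (Nfkb2) to 1.64 (Oga). With GC content corrected, 1, Oga, passed (1.46, adjusted p = 0.026), beside 6.39% of all tested genes. Hps6 overlaps 1 other annotated gene, the non-coding 4930505N22Rik.

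**Figure D4:**
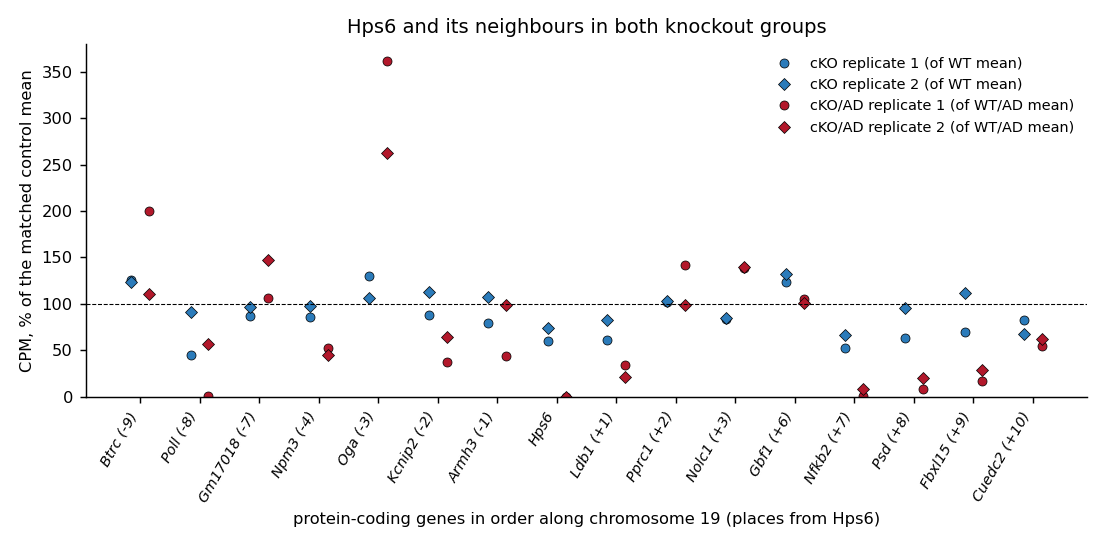
Level of Hps6 and its 15 neighbours in order along chromosome 19, as a percentage of the mean CPM of the matched control group, with 2 points each for cKO (of WT) and cKO/AD (of WT/AD). Hps6 is at or near 0 in both cKO/AD libraries, Nfkb2 is the next lowest, with 0.0568 and 0.981 CPM in cKO/AD, and Oga is the highest.

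The wider machinery was followed in 59 genes of 8 lists that hold none of the 9, of which 56 were tested. In cKO/AD against WT/AD 7 rose and 7 fell, 14 of 56 beside the 18.0% of all tested genes, with a median log2 difference of -0.14 in both. None of the 56 passed with edgeR in the 4 other comparisons, where an unadjusted p was under 0.05 for 5 (AD in wild type), 1 (knockout without AD), 22 (AD in the knockout) and 15 (interaction), beside the 8.99%, 7.23%, 23.4% and 21.9% of all tested genes. DESeq2 called 4, 0, 12 and 9 in that order, beside 5.26%, 1.87%, 16.4% and 13.9% of the genes it gave an adjusted p. Without the first cKO/AD library edgeR called 5, 1, 8 and 9 of the listed genes and without the second 5, 1, 30 and 29, beside the shares of all tested genes given above for the 8 genes. After correction for GC content, where 6.39% of all tested genes were called, Rab27a, Mlph, Vti1b and Mitf held 4 of the 14 calls, while 13 were kept without the first cKO/AD library. All 14 calls were lost with only the 2 groups in the fit, where 0 of 19740 tested genes were called (5245 had an unadjusted p under 0.05), and without the first WT/AD library, where 2 of 24857 were called.

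In the rest of BLOC-1 and AP-3, 1 of 12 genes passed with edgeR in cKO/AD against WT/AD, beside 18.0% of all tested genes. Nothing is read from this count or from those of the other lists below. Of the 7 BLOC-1 genes, 4 had a positive and 3 a negative log2 difference. Bloc1s1, at low counts, was counted 44 and 86 times in WT/AD and 0 and 5 times in cKO/AD, and did not pass with edgeR. Of the 7, DESeq2 called 1 higher and 1 lower, beside 30.9% of the genes it gave an adjusted p. With limma-voom 1 was called lower, beside 21.8% of all tested genes called. Ap3m1, the mu subunit of AP-3, rose from 53.4 and 66.1 CPM in WT/AD to 142.5 and 112.2 in cKO/AD (log2 difference 1.09, SE 0.21, edgeR adjusted p = 0.0136), and the difference was 0.43 after GC correction (adjusted p = 0.181). Bloc1s6, the pallidin gene, measured 29.5 and 24.6 CPM in the WT/AD libraries and 50.5 and 17.2 CPM in the cKO/AD libraries, and Ap3s1 at 29.8 and 38.1 and at 27.7 and 35.4.

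Of the 9 genes of the list of Rab32, Rab27 and related effectors, 2 rose and 2 fell, beside 7.82% and 10.2% of all tested genes. The log2 difference was positive for 5 of the 9 and negative for 4. Rab27a, a GTPase of secretory lysosomes and melanosomes, rose from 50.5 and 61.3 CPM in WT/AD to 428.4 and 167.9 in cKO/AD (log2 difference 2.41, SE 0.41, edgeR adjusted p = 0.00995, and 2.27, adjusted p = 0.0275, with GC content corrected). It was at 94.4 and 78.4 CPM in WT and 70.7 and 59.9 in cKO. Mlph, which encodes melanophilin and links Rab27a to myosin Va, fell from 91.4 and 83.2 to 8.29 and 25.4 CPM (-2.37, adjusted p = 0.0152, and -1.46, adjusted p = 0.0398, with GC content corrected). Unc13d, an effector in granule release, fell from 31.4 and 25.1 to 4.09 and 4.77 CPM (-2.67, adjusted p = 0.0165, and -0.77, adjusted p = 0.376, with GC content corrected). Lyst, the gene of Chediak-Higashi syndrome and beige mice, rose from 40.5 and 39.5 to 124.3 and 83.6 CPM (1.38, adjusted p = 0.017, and 1.05, adjusted p = 0.0644, with GC content corrected).

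Among the HOPS and CORVET tethers, which bring endosomes and lysosomes together for fusion, Vps11 and Vps18 fell and 6 did not pass. Of all tested genes 10.2% were called lower. Vps11 went from 114.2 and 106.4 CPM in WT/AD to 46.6 and 38.5 in cKO/AD (log2 difference -1.38, edgeR adjusted p = 0.00708) and Vps18 from 111.3 and 124.7 to 12.4 and 33.4 (-2.36, adjusted p = 0.023), and both calls were lost with GC content corrected (adjusted p = 0.163 and 0.211). Vps33a, mutated in buff mice, measured 48.0 and 61.1 CPM in the WT/AD libraries and 52.9 and 56.7 CPM in the cKO/AD libraries. Of the 5 BORC subunits, which place lysosomes along microtubules, Borcs7 rose from 18.3 and 19.5 to 57.6 and 50.2 CPM (1.51, adjusted p = 0.0113, and 0.99, adjusted p = 0.0602, with GC content corrected).

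Of 12 SNARE and cargo genes 2 rose and 1 fell, beside 7.82% and 10.2% of all tested genes. Vti1b, an endosomal SNARE gene, rose from 19.1 and 16.9 CPM in WT/AD to 67.8 and 41.4 in cKO/AD (log2 difference 1.60, edgeR adjusted p = 0.0152, and 2.01, adjusted p = 0.0288, with GC content corrected). Stx7 rose by 0.69 and Vamp8 fell by 1.20 on the log2 scale (adjusted p = 0.0335 and 0.0409), and neither passed with GC content corrected (adjusted p = 0.696 and 0.161). Cd63, a tetraspanin of lysosomes and their relatives, measured 675.7 and 657.8 CPM in the WT/AD libraries and 977.5 and 599.8 CPM in the cKO/AD libraries, Lamp1 at 1630.6 and 1845.5 and at 1074.3 and 1346.7, and Pi4k2a, whose product is an AP-3 cargo, at 132.2 and 115.4 and at 124.3 and 172.2. None of the 3 passed (adjusted p from 0.113 to 0.518), but with GC content corrected Cd63 (2.17, adjusted p = 0.0344) and Pi4k2a (1.16, adjusted p = 0.0254) did.

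The MiT/TFE factors, which control lysosomal and melanosomal genes, went both ways. Mitf rose from 9.93 and 9.82 CPM in WT/AD to 42.6 and 46.4 in cKO/AD (log2 difference 2.17, SE 0.291, edgeR adjusted p = 0.00689, and 1.62, adjusted p = 0.0273, with GC content corrected). Tfeb fell from 84.2 and 65.6 to 0.284 and 7.63 CPM (-4.22, adjusted p = 0.0312) and Tfe3 from 256.7 and 228.5 to 35.1 and 112.1 (-1.72, adjusted p = 0.0389), and neither passed with GC content corrected (-2.17 and -1.25, adjusted p = 0.129 and 0.0727). None of the 6 tested melanosome genes passed with edgeR, while DESeq2 called 1 higher and 1 lower and limma-voom called 1 higher.

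**Figure D5:**
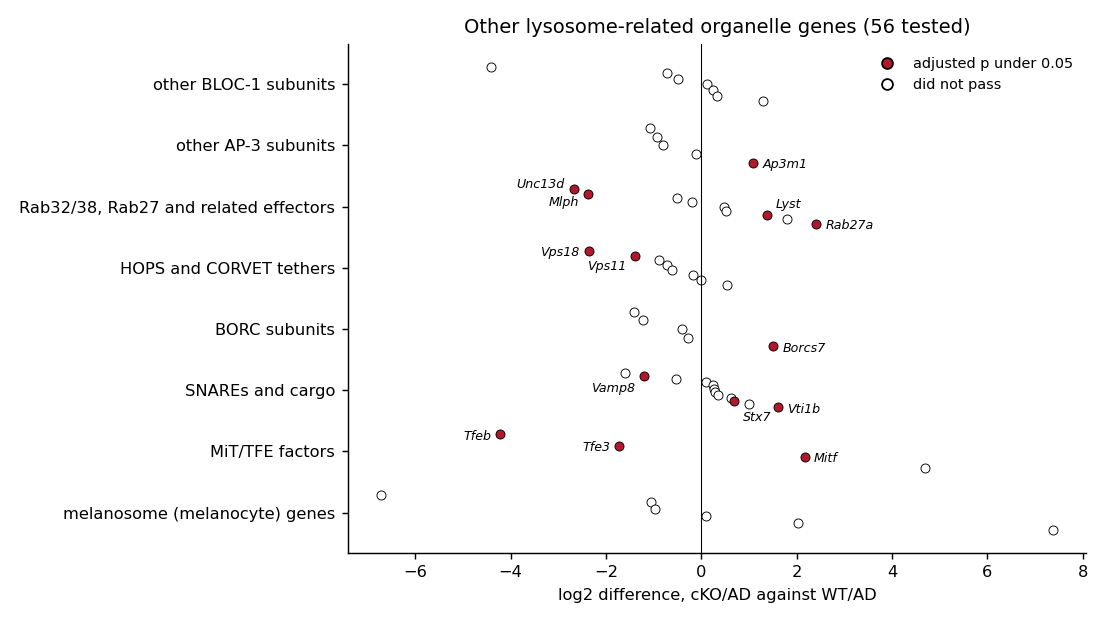
Log2 difference between cKO/AD and WT/AD for the 56 tested genes of the 8 wider lists, 1 point per gene, filled where the edgeR adjusted p was under 0.05. The 14 filled points are named, 7 on each side of 0.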

How the data were processed

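Per the labels' protocols, an Illumina TruSeq RNA kit was used on 1 ug of total RNA. The authors deposited whole-number counts per gene for 8 libraries in 1 table, without normalisation. The submitters' processing notes name mm9; for the aligner, the counter and the strand setting, the sources used here give nothing. Of 55421 gene identifiers 55240 matched GENCODE M21 (GRCm38), which gave GC content, length, exons and gene order; upstream sequences came from RefSeq (GRCm38.p6).

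edgeR 4.0.16 (R 4.3.3) fitted a mean per group to all 8 libraries after filterByExpr and TMM scaling, leaving 4 residual degrees of freedom. CPM used library sizes times TMM factors. Quasi-likelihood p-values, two-sided, were adjusted by Benjamini-Hochberg over 22089 genes, with a threshold of 0.05. Each AD group was compared with its genotype's non-AD group, each knockout group with its wild type, and both effects by their interaction. An SE is the log2 difference over the root of its F statistic. Ratios against 1 count have exact Clopper-Pearson intervals; r used log2(CPM + 0.5).

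Other settings were DESeq2 1.42.0 (its Wald test; its size factors in edgeR), limma-voom 3.58.1 with or without group weights, library size alone, no filter, a filter of 1 CPM in 4 libraries, a fit to 2 groups, a replicate block, a loess GC correction per library (span 0.4, genes above a mean log2 CPM of 2), that correction plus the block, and each library left out. The edgeR fit was tested on simulated counts for AD in wild type only. The 9 genes, the lists, the naming rule and the settings were chosen with earlier results of these data known. The rule takes the 9 genes, up to 4 called genes per list, fixed genes of the lists, the 5 genes most like Hps6 (mean of at least 5 CPM) and its neighbours; not all are printed.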

Additional observations from a re-analysis of the deposited data

How the results depend on the processing

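Of 839 values of the 9 genes under the 19 alternatives, 2 turned to a call of the opposite sign, Ap3d1 in cKO/AD against WT/AD at 0.97 with GC content corrected and 0.96 with the replicate block added; the cause was not tested. Of the 8 genes other than Hps6, 2 were called there, against 0 with only the 2 groups compared and 0 to 5 with 1 library left out (0 without the first WT/AD library, 5 without the second cKO/AD library). Leaving out 1 library gave 0 to 1 in cKO against WT, 0 to 5 in cKO/AD against cKO and 0 to 5 in the interaction, and a weight per group in limma-voom gave 1 in cKO against WT (Hps4). DESeq2 gave 2 in cKO/AD against cKO and 1 in the interaction, and no filter gave 2 and 2.

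Of the 56 wider genes, 14 were called in cKO/AD against WT/AD, against 24 with DESeq2, 7 with GC content corrected with or without the block, 9 with voom weights, 0 with only the 2 groups, and 0 to 35 with 1 library left out. In WT/AD against WT the count of 0 became 4 with DESeq2, 5 with voom weights, 1 with no filter, 4 with only the 2 groups and 0 to 5 with 1 left out; in cKO against WT it was 0 to 1 with 1 left out. In cKO/AD against cKO it became 12 with DESeq2, 2 with library size alone, 2 with voom, 2 with voom weights, 11 with no filter, 3 with the stricter filter and 0 to 30 with 1 left out, and in the interaction 9 with DESeq2, 3 with voom, 4 with voom weights, 13 with no filter, 2 with the stricter filter and 0 to 29.

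Same-numbered libraries did not deviate together (r from -0.0334 to 0.0611 over genes), and the labels do not say what the numbers mean. With the replicate block the counts in cKO/AD against WT/AD were 3 and 13. The share of all tested genes called in cKO/AD against WT/AD was 18.0%, against 6.39% with GC content corrected, 30.9% with DESeq2, 16.2% with no filter, 10.6% with voom weights, 0.0% with only the 2 groups, and 0.00805% to 41.1% with 1 library left out. In cKO/AD against cKO it was 0.217%, against 16.4% with DESeq2, 8.79% with no filter and 0.0% to 34.6% with 1 left out, and in the interaction 0.0272%, against 13.9%, 7.68% and 0.00402% to 31.8%. In cKO against WT it was 0.0%, against 2.01% with voom weights and 0.0% to 2.72% with 1 left out. The 2 cKO/AD libraries correlated at 0.843, against 0.93 to 0.945 in the other groups.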
